A study of Mus musculus with 9 samples.

Results

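Pcdhga4, Pcdhga5, Pcdhga6 and Pcdhga11 are gamma protocadherin genes, each coding for a cell adhesion protein of the cadherin superfamily. They are 4 of the 11315 genes measured in this series and 4 of its 19 measured genes of the gamma cluster. They were picked by name with their measured levels in these libraries in view. For that reason the differences of these 4 genes between the groups are given below as a description, with a standard error. Their calls in the fit over all genes are printed once, beside the share of all genes called, and support nothing.

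Cells had been sorted for a fluorescent reporter from brains of C57BL/6 mice aged 60 days after birth, and their RNA was sequenced in 9 libraries, 3 for each of 3 reporters. Each group carries 1 reporter, which gives it its name here: PDGFRa-GFP cells, labelled as oligodendrocyte progenitors, PLP-GFP cells, labelled as pre-myelinating oligodendrocytes, and NDRG1-eGFP cells, labelled as myelinating oligodendrocytes (the labels write PDGFRa::GFP and PLP::GFP). Pdgfra codes for a growth factor receptor of progenitors and Ndrg1 for a cytoplasmic protein found in myelinating cells. The labels number the libraries of a group 1 to 3 but do not say whether these came from separate animals or pools, so every standard error and p-value measures the spread between these libraries.

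The clustered protocadherin genes lie side by side as the alpha, beta and gamma clusters. In the gamma cluster each gene has its own promoter and its own large first exon, which codes for the extracellular, transmembrane and first intracellular part of the protein, and this exon is spliced to constant exons that all gamma genes share. The proteins bind like to like between cells, and the choice among promoters, in which CTCF and cohesin take part, gives a cell its own set of isoforms, best known from the self-recognition of neurons.

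The 4 genes lie on the plus strand of chromosome 18 (GRCm38, the build also called mm10, with GENCODE M21 annotation) and end together at position 37841873. The first exon of Pcdhga4 spans 37685210 to 37687817, that of Pcdhga5 37694380 to 37696924, that of Pcdhga6 37707039 to 37709652 and that of Pcdhga11 37755731 to 37758367. Constant exons at 37825021 to 37825079, 37833265 to 37833353 and 37839903 to 37841873 hold 2119 bases, the last of them with the shared 3' untranslated region, and make up 44.55% to 45.43% of each transcript. A read from them fits every gamma gene, and how such reads were counted is not given in the sources used here, so a part of each level below may be common to the cluster. The first exons themselves are distinct: their nucleotide identity among the 4 genes was 66.9% to 70.43% over 6 pairs, 67.65% to 73.46% with the other gamma A genes, and 56.39% to 62.4% with gamma B and gamma C genes. Of all 50-base windows in its first exon, Pcdhga11 shared none with another annotated transcript, Pcdhga6 shared 0.2729% with Pcdhga10 and Pcdhga5 shared 0.601% with Pcdhga8. Pcdhga4 stood apart, since an annotated transcript of Pcdhgb1 overlaps 1038 bases of its first exon on the same strand and takes in 38.65% of its windows. The first exon of Pcdhga11 is overlapped over 1381 bases by Gm26672 on the opposite strand. Gm26672 was not analysed here, and whether the counting used strand is not given in the sources used here.

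All 9 libraries had the same median, 10.57 on the deposited log2 scale, and values ran from 0.29 to 21.87. Libraries of a group correlated at 0.931 to 0.985 across genes and libraries of different groups at 0.876 to 0.932, and within the PDGFRa-GFP group replicate 3 correlated with the other two at only 0.931 to 0.935. The labels were checked against markers. Mature oligodendrocyte markers (11 of 11 measured, Mbp among them) summed to 31700 to 47080 ppm of the linear signal (2 raised to the deposited value, relative to its sum over all genes) in PDGFRa-GFP libraries, against 39320 to 42130 in PLP-GFP and 50830 to 54190 in NDRG1-eGFP libraries, so the libraries labelled as progenitors overlapped the PLP-GFP libraries in mature transcripts. Progenitor markers (11 of 12 measured) summed to 1204 to 1723 ppm in PDGFRa-GFP, 1722 to 2019 in PLP-GFP and 1613 to 1779 in NDRG1-eGFP libraries, so that the libraries labelled as progenitors were not set apart by a higher sum. This sum follows mostly Sox10, Lrrn1 and Olig2, at mean log2 values of 15.34, 14.95 and 13.85 in PDGFRa-GFP libraries. It therefore says little about the progenitor markers with lower values. In PLP-GFP against PDGFRa-GFP libraries limma called 8.46% of all genes higher and 8.53% lower. Of the 11 progenitor markers it called 1 higher and 1 lower, Lrrn1 by 0.55 ± 0.14 and Pdgfra by -3.92 ± 0.999 (adjusted p = 0.0274 for each). Without PDGFRa-GFP replicate 3, 4 were called lower in PLP-GFP and 5 lower in NDRG1-eGFP against PDGFRa-GFP libraries, with 1 higher in each. Leaving out any other library gave 0 or 1 lower. With all libraries, 6 and 3 of the 11 differences lay above 0 in these comparisons. The mean log2 value of Pdgfra was 6.63, 2.71 and 5.70 in the 3 groups. Fibroblast-like markers (10 of 12 measured, Lum and Pdgfrb not among them) summed to 143.8 to 292.4, 4.45 to 7.98 and 77.2 to 248.0 ppm in the same order, neuron markers (7 of 12) to 64.1 to 92.5, 54.2 to 140.2 and 73.0 to 115.0, and microglial markers (11 of 12) to 69.2 to 113.8, 54.3 to 79.1 and 113.1 to 167.3. The neuron sum follows mostly Tubb3, at mean log2 values of 12.01, 12.11 and 12.38. Snap25, the next highest, stood at 7.19, 6.92 and 8.13.

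Pcdhga4 showed the widest change of the 4 genes. Its normalized log2 values were 7.92, 6.60 and 7.29 with the PDGFRa-GFP reporter, 9.99, 10.73 and 10.56 with PLP-GFP and 6.86, 7.68 and 7.66 with NDRG1-eGFP. Every PLP-GFP library lay above all 6 others, and the remaining groups overlapped. The percentile of Pcdhga4 among all genes of a library was 8.6 to 17.5 in PDGFRa-GFP, 40.2 to 53.1 in PLP-GFP and 10.1 to 15.6 in NDRG1-eGFP libraries. The difference of group means was 3.15 ± 0.37 (SE of the fit, n = 3 a group) for PLP-GFP minus PDGFRa-GFP and -3.02 ± 0.37 for NDRG1-eGFP minus PLP-GFP.

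Pcdhga5, the next gamma A gene along the chromosome, had values of 8.87, 8.01 and 8.49 in PDGFRa-GFP, 9.32, 10.09 and 9.95 in PLP-GFP, and 8.15, 8.66 and 8.33 in NDRG1-eGFP libraries. The PLP-GFP libraries were again the 3 highest, with replicate 1 only just above the highest PDGFRa-GFP library. The differences were 1.33 ± 0.28 for PLP-GFP minus PDGFRa-GFP and -1.41 ± 0.28 for NDRG1-eGFP minus PLP-GFP.

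Pcdhga6 was measured at 7.45, 6.82 and 8.64 in PDGFRa-GFP, at 9.19, 9.46 and 9.11 in PLP-GFP and at 7.45, 8.02 and 8.41 in NDRG1-eGFP libraries. Its PLP-GFP values lay close together and above the others, while the PDGFRa-GFP values were widely spread (SD 0.93) with replicate 3 high. PLP-GFP minus PDGFRa-GFP came to 1.62 ± 0.42, or 2.12 without that library, and NDRG1-eGFP minus PLP-GFP to -1.29 ± 0.42.

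Pcdhga11 ran the other way. It stood at 10.71, 10.22 and 10.16 in PDGFRa-GFP, at 8.96, 9.38 and 8.91 in PLP-GFP and at 10.15, 10.42 and 10.36 in NDRG1-eGFP libraries. The PLP-GFP libraries were the 3 lowest of the 9, and the 6 others lay between 10.15 and 10.71. Its percentile among genes was 43.0 to 52.5, then 26.2 to 31.6, then 42.8 to 47.3. PLP-GFP minus PDGFRa-GFP was -1.28 ± 0.20 and NDRG1-eGFP minus PLP-GFP was 1.23 ± 0.20. In sorted bulk samples, fewer cells that express a gene and less of its RNA per cell cannot be told apart.

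**Figure D1:**
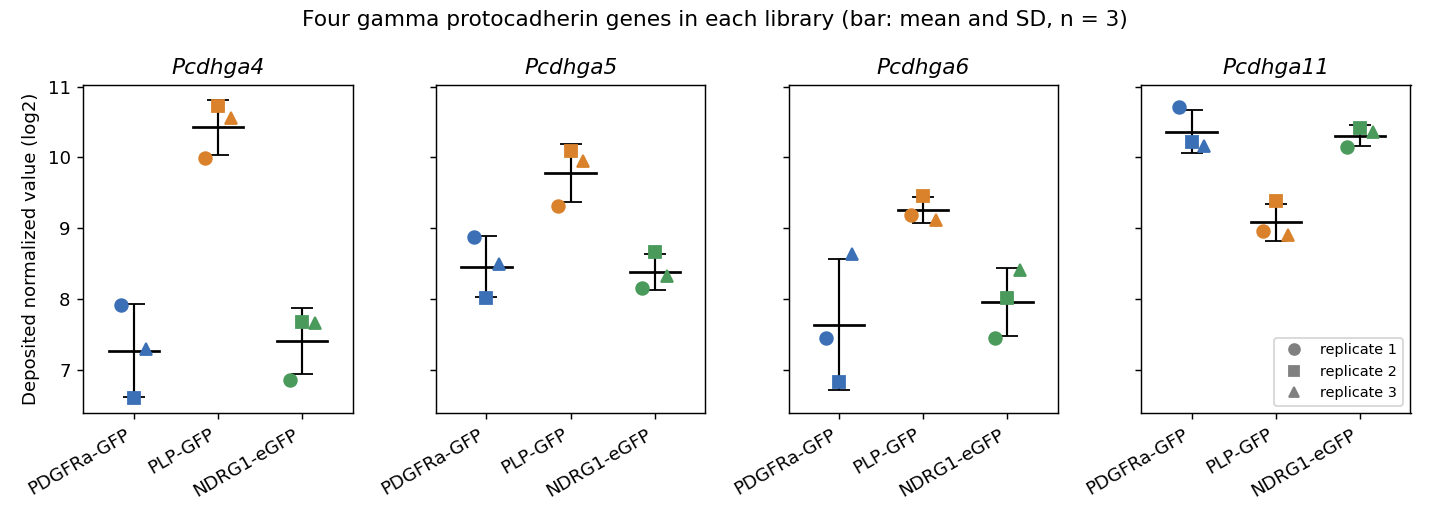
Deposited normalized log2 value (vertical axis) of Pcdhga4, Pcdhga5, Pcdhga6 and Pcdhga11 in the 3 reporter groups (horizontal axis), 1 point per library with marker shape for the replicate number, and bars for the mean and SD (n = 3). The PLP-GFP libraries are the highest 3 for Pcdhga4, Pcdhga5 and Pcdhga6 and the lowest 3 for Pcdhga11.

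In the limma fit over all genes (adjusted p under 0.05, Benjamini-Hochberg), PLP-GFP minus PDGFRa-GFP was called above 0 for 3 of the 4 genes and below 0 for 1, where 17.0% of all genes were called, 8.46% higher and 8.53% lower, and 22.3% and 20.0% had groups that did not overlap in those directions. For NDRG1-eGFP against PLP-GFP 3 were called lower and 1 higher, where 48.3% of all genes were called, 22.2% lower and 26.1% higher, and 29.8% and 36.6% did not overlap. Without PDGFRa-GFP replicate 3, the differences between PLP-GFP and PDGFRa-GFP libraries were 3.16 for Pcdhga4, 1.35 for Pcdhga5 and -1.38 for Pcdhga11. Nothing is read from the counts of calls, because the genes were picked with these contrasts known. Both comparisons share the PLP-GFP libraries, so the return toward the first level is not a second measurement of the same shift. For NDRG1-eGFP minus PDGFRa-GFP the differences were 0.13 ± 0.37 for Pcdhga4, -0.08 ± 0.28 for Pcdhga5, 0.32 ± 0.42 for Pcdhga6 and -0.05 ± 0.20 for Pcdhga11. All 4 genes overlapped between these groups, where 21.0% of all genes lay fully higher and 14.3% fully lower in NDRG1-eGFP libraries and limma called 21.1%, 10.7% higher and 10.4% lower. Overlap and a small difference do not show that the levels were equal, and the standard errors give the precision.

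Between the sorted groups, the order of the genes changed. Divided by transcript length, the mean log2 level per kb in PDGFRa-GFP libraries was 8.11 for Pcdhga11, 6.24 for Pcdhga5, 5.39 for Pcdhga6 and 5.03 for Pcdhga4. In PLP-GFP libraries the order was Pcdhga4 at 8.18, Pcdhga5 at 7.57, Pcdhga6 at 7.01 and Pcdhga11 at 6.83. By mean level it was in NDRG1-eGFP libraries Pcdhga11 at 8.06, Pcdhga5 at 6.15, Pcdhga6 at 5.72 and Pcdhga4 at 5.16. The ratio of Pcdhga4 to Pcdhga11 within a library, as a log2 difference per kb, was -2.77, -3.61 and -2.86 in PDGFRa-GFP, 1.04, 1.36 and 1.66 in PLP-GFP and -3.27, -2.73 and -2.69 in NDRG1-eGFP libraries. It changed sign in each PLP-GFP library, so Pcdhga4 passed Pcdhga11 there. The ratio of Pcdhga5 to Pcdhga11 averaged -1.87, 0.74 and -1.91 in the 3 groups and that of Pcdhga6 to Pcdhga11 -2.72, 0.18 and -2.34. Pcdhga6 and Pcdhga11 were thus near each other in PLP-GFP libraries, with Pcdhga6 higher by 0.08 to 0.24 in each. Pcdhga4 and Pcdhga6 could not be ordered in PDGFRa-GFP libraries, where their log2 difference per kb was 0.48, -0.22 and -1.35. Pcdhga5 lay above Pcdhga6 in replicates 1 and 2 of PDGFRa-GFP and of NDRG1-eGFP libraries and just below it in replicate 3 of each, with log2 differences per kb of -0.13 and -0.06, so this pair could not be ordered there either.

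Summed over the 19 measured gamma genes, the linear signal was 75.8 to 126.5 ppm in PDGFRa-GFP, 144.0 to 203.1 in PLP-GFP and 84.7 to 111.1 in NDRG1-eGFP libraries. Per kb of transcript, the 4 genes together held 35.5%, 35.8% and 26.6% of the cluster's sum in PDGFRa-GFP, 31.1%, 33.5% and 33.3% in PLP-GFP and 32.9%, 32.8% and 34.6% in NDRG1-eGFP libraries. Their joint share overlapped between the groups while its make-up differed. Pcdhga11 alone accounted for 14.7% to 25.6% in PDGFRa-GFP, where it ranked first or next to first of the 19 genes, for 4.5% to 5.6% in PLP-GFP, at ranks 6 to 12, and for 20.0% to 21.8% in NDRG1-eGFP, at rank 1 in each library. Pcdhga4 went from 2.0% to 3.4% at ranks 10 to 16, to 11.5% to 14.2% at ranks 1 and 2, to 2.2% to 3.2% at rank 14. Pcdhga5 held 4.7% to 6.6%, 7.4% to 9.5% and 5.2% to 6.0% in the same order. The share of Pcdhga6 was 2.4% to 5.2%, 5.2% to 6.6% and 3.4% to 5.4%, with the ranges of PDGFRa-GFP and PLP-GFP libraries meeting at the rounded value. Pcdhga11 was thus lower in the libraries where the summed signal of the cluster was highest.

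**Figure D2:**
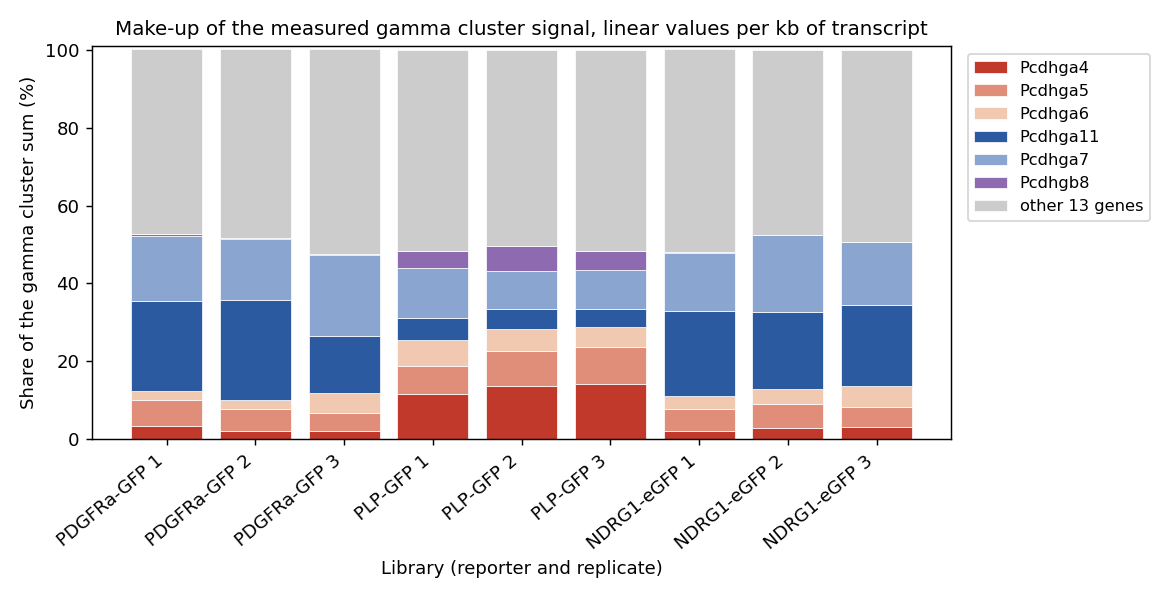
Share of the gamma cluster's summed linear value per kb of transcript (vertical axis, %) taken by each of the 4 genes, by Pcdhga7 and Pcdhgb8 and by the other 13 measured gamma genes, in each library (horizontal axis). Pcdhga11 takes 14.7% to 25.6% in PDGFRa-GFP and 20.0% to 21.8% in NDRG1-eGFP libraries and 4.5% to 5.6% in PLP-GFP libraries, where Pcdhga4 takes 11.5% to 14.2%.

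Among the 15 other measured gamma genes, which are those left by the choice and so not independent of it, higher levels in PLP-GFP libraries were common and a fall like that of Pcdhga11 was not called. In limma 8.46% of all genes were called higher in PLP-GFP against PDGFRa-GFP and 8.53% lower. Of the 15 genes 5 rose there and 0 fell (8 and 0 at an unadjusted p under 0.05), with a median difference of 0.82 against 0.03 over all genes. Pcdhgb8 rose by 4.83 ± 0.71 (limma adjusted p = 0.0041), Pcdhga9 by 1.98 ± 0.57, Pcdhgb1 by 1.81 ± 0.42, Pcdhga10 by 1.48 ± 0.44 and Pcdhga12 by 1.23 ± 0.27. Of these calls, that of Pcdhgb1 held in 13 of 15 alternative settings, that of Pcdhga12 in 12, that of Pcdhga10 in 8 and that of Pcdhga9 in 6 of 14. In NDRG1-eGFP against PLP-GFP 22.2% of all genes were called lower and 26.1% higher. Of the 15 other gamma genes 9 fell and 0 rose (10 and 0 unadjusted), with a median of -0.93 against 0.08 over all genes. Those that fell were Pcdhga9, Pcdhga10, Pcdhga12, Pcdhgb1, Pcdhgb4, Pcdhgb5, Pcdhgb6, Pcdhgb8 and Pcdhgc3, by 0.50 for Pcdhgb6 to 6.28 for Pcdhgb8. The falls of Pcdhga12 and Pcdhgb4 held in 15 and 14 of 15 settings, that of Pcdhgb1 in 13, that of Pcdhgc3 in 12 and that of Pcdhgb5 in 9, and the fall of Pcdhga9 held in 9 of 14. Those of Pcdhga10 and Pcdhgb6 held in 7 of 15, were lost on leaving out any library and with the replicate block, and Pcdhgb6 stood at -0.24 with the length trend removed. The count of rises dropped to 2 without PDGFRa-GFP replicate 2, to 3 without PLP-GFP replicate 1 and to 1 without PLP-GFP replicate 2 or 3, and that of falls to 2 without PLP-GFP replicate 2 and to 4 without PLP-GFP replicate 3 or NDRG1-eGFP replicate 1. With the trend on transcript length removed, 3 rose and 4 fell.

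Pcdhga7, Pcdhgb7 and Pcdhga2 showed little difference between PLP-GFP and PDGFRa-GFP libraries, at 0.03 ± 0.29, -0.03 ± 0.33 and -0.04 ± 0.67. Pcdhga7 shared the top of the cluster with Pcdhga11 in PDGFRa-GFP and NDRG1-eGFP libraries, at 15.5% to 20.7% and 14.9% to 19.6% of the sum, and took 9.8% to 12.8% in PLP-GFP libraries. Pcdhga3, at the start of the cluster, was the single gene called for NDRG1-eGFP against PDGFRa-GFP (1.24 ± 0.33, 1 of 15 by limma, median of the 15 genes -0.12 against 0.14 over all genes), and this call held in 8 of 14 alternative settings. Of all genes 10.7% were called higher in that comparison and 10.4% lower.

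The gene that follows Pcdhga11 along the chromosome, Pcdhgb8, is annotated as a polymorphic pseudogene and moved opposite to it. It was listed at 5.28, 3.64 and 3.77 in PDGFRa-GFP, at 8.61, 9.60 and 8.99 in PLP-GFP and at 3.85, 1.82 and 2.69 in NDRG1-eGFP libraries, which put it last of the 19 genes in all 6 libraries outside the PLP-GFP group. Both its calls held in each of the 14 alternative settings run for it, but the size of the difference went down to 1.48 and -1.55 among them. These low values are coarse, with as few as 2 and at most 68 distinct values below them in a library, and depth is unknown.

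**Figure D3:**
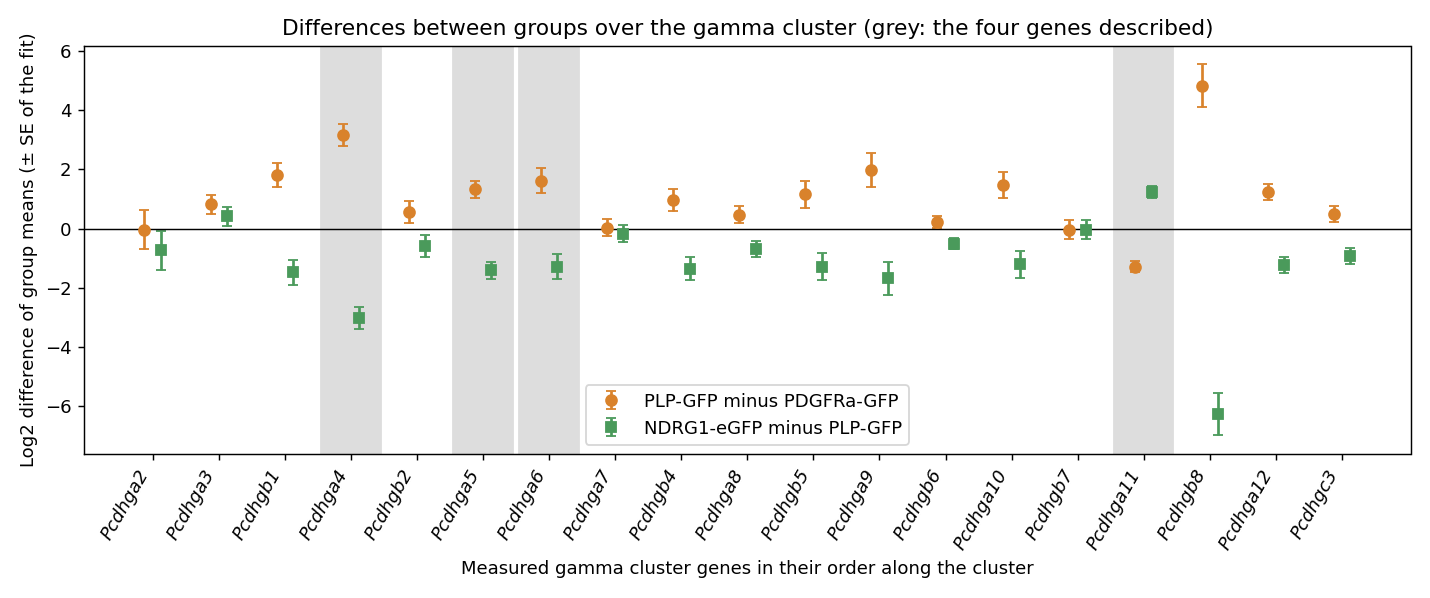
Log2 difference of group means with its SE (vertical axis) for the 19 measured gamma genes in their order along the cluster (horizontal axis), with circles for PLP-GFP minus PDGFRa-GFP and squares for NDRG1-eGFP minus PLP-GFP and grey bands for Pcdhga4, Pcdhga5, Pcdhga6 and Pcdhga11. Pcdhga11 lies below 0 for the first comparison (-1.28) and above 0 for the next (1.23), beside Pcdhgb8 at 4.83 and -6.28.

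Over the 9 libraries Pcdhga4 and Pcdhga5 followed each other most closely of the 4, with a Pearson correlation of 0.975, rank 18 for Pcdhga4 and rank 9 for Pcdhga5 among 11313 genes. Pcdhga6 correlated with Pcdhga4 at 0.851 and with Pcdhga5 at 0.804, and had nearer partners in Pcdhga9 (0.970, rank 2) and Pcdhgb1 (0.957, rank 7). Pcdhga4 correlated with Pcdhgb1, whose transcript overlaps its first exon, at 0.921, and with Pcdhga12 at 0.972. Pcdhga11 correlated with Pcdhga4, Pcdhga5 and Pcdhga6 at -0.844, -0.759 and -0.751. These correlations over 9 libraries in 3 groups describe mostly the group means, and libraries share their scaling.

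Outside the clusters, the genes whose profile was most like the mean of the 4 centred genes were Gabpa, a transcription factor of the ETS family (r = 0.987 over 9 libraries, among 5302 genes ranked), Susd6 (0.983), Mfap3l (0.981), Sh3bgrl2 (0.980), Acsl4, which activates long-chain fatty acids (0.972), and Pcgf3, a Polycomb group protein (0.966). Gabpa stood at 10.72 ± 0.28, 11.47 ± 0.17 and 10.70 ± 0.25 (SD, n = 3) in PDGFRa-GFP, PLP-GFP and NDRG1-eGFP libraries. Mfap3l had the widest range of the 6, at 8.92 ± 0.60, 10.32 ± 0.17 and 9.18 ± 0.50. Since Pcdhga11 runs against the other 3 genes, this mean profile is a damped form of theirs.

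The beta cluster lies just before the gamma cluster, and its genes are single-exon genes without shared constant exons. In PLP-GFP against PDGFRa-GFP limma called 8.46% of all genes higher and 8.53% lower. Of the 17 measured beta genes 6 rose there and 0 fell (10 and 0 unadjusted), with a median of 1.28. They were Pcdhb12 (3.24 ± 0.76), Pcdhb11 (2.27 ± 0.48), Pcdhb15 (2.04 ± 0.55), Pcdhb22 (1.75 ± 0.50), Pcdhb20 (1.55 ± 0.30) and Pcdhb9 (0.99 ± 0.30). In NDRG1-eGFP against PLP-GFP 22.2% of all genes were called lower and 26.1% higher. Of the beta genes Pcdhb16 and Pcdhb20 fell there, by 1.40 ± 0.47 and 0.84 ± 0.30, and 0 rose (5 and 1 unadjusted), with a median of -0.68. These 2 falls became 0 without PLP-GFP replicate 2 or 3 or NDRG1-eGFP replicate 1 or 3, and 1 with the length trend removed. For NDRG1-eGFP against PDGFRa-GFP 10.7% of all genes were called higher and 10.4% lower. Pcdhb12 and Pcdhb7 were higher in this comparison, by 3.20 ± 0.76 and 1.17 ± 0.34. Without PDGFRa-GFP replicate 3, 8 beta genes were higher, and without NDRG1-eGFP replicate 1 or 2, 0 were. Pcdhb12 lay near the bottom of the scale in PDGFRa-GFP libraries (1.80 to 3.99, percentile 0.6 to 1.7), and with an added constant of 5 both its calls were lost, at 0.30 and 0.33. The count of 6 became 12 without PDGFRa-GFP replicate 3, 3 without its replicate 1, 2 without its replicate 2 or PLP-GFP replicate 1, and 0 without PLP-GFP replicate 2 or 3. The summed beta signal was 24.1 to 60.8, 59.6 to 81.3 and 40.4 to 63.3 ppm in the 3 groups. Of the 14 listed genes of the alpha cluster 0 were found by symbol among the genes measured, so none was analysed here.

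Of the factors known to act on clustered protocadherin promoters (CTCF, cohesin and its partners, and silencing factors), 18 of 20 were measured. For PLP-GFP against PDGFRa-GFP limma called 8.46% of all genes higher and 8.53% lower. Of the 18 factors 4 rose there and 0 fell (5 and 1 unadjusted), with a median of 0.31. They were Stag2, a cohesin subunit (0.89 ± 0.19), the cohesin regulators Pds5a (0.84 ± 0.25) and Pds5b (0.75 ± 0.21), and Dnmt1, the maintenance DNA methyltransferase (0.78 ± 0.23). None of these calls was left with the length trend removed, where 0 rose and 1 fell, or without PLP-GFP replicate 2 or 3, and 2 were left without PDGFRa-GFP replicate 2. In NDRG1-eGFP against PLP-GFP 48.3% of all genes were called, 26.1% higher and 22.2% lower. Of the 18 factors 1 rose and 9 fell, with a median of -0.50, among them Pds5a (-1.69 ± 0.25), the cohesin subunit Rad21 (-1.22 ± 0.16), Stag2 (-1.10 ± 0.19) and the zinc finger protein gene Wiz (-1.02 ± 0.13). With the length trend removed 3 rose and 4 fell, with a median of -0.08, and Pds5a stood at -1.12, Rad21 at -1.15, Stag2 at -0.60 and Wiz at -0.49. Rad21 (-0.87 ± 0.16) and Wiz (-0.73 ± 0.13) were also lower in NDRG1-eGFP than in PDGFRa-GFP libraries, with Pds5a (-0.85 ± 0.25) and Smchd1 (-0.54 ± 0.16), while 0 rose (1 unadjusted). Of all genes 10.4% were called lower in that comparison and 10.7% higher. The calls of Rad21 and Wiz held in 15 of 15 alternative settings, that of Pds5a in 7 and that of Smchd1 in 9.

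Proteins that cut or bind gamma protocadherins were measured for 18 of 19 listed genes. Adam10, the protease that sheds their extracellular part, was higher in PLP-GFP than in PDGFRa-GFP libraries by 1.08 ± 0.18 (limma adjusted p = 0.00812), a call that held in 15 of 15 alternative settings. Cdh2, N-cadherin, and Nlgn1, a postsynaptic adhesion gene, rose by 0.80 ± 0.20 and 0.75 ± 0.19, each held in 9 of 15. Of all genes 8.46% were called higher in PLP-GFP against PDGFRa-GFP and 8.53% lower. In all 4 of the 18 partner genes rose there and 1, Psenen, fell (-0.79 ± 0.15, but -0.07 with the length trend removed), with a median of 0.12. Without PDGFRa-GFP replicate 2 or PLP-GFP replicate 2 or 3 only 1 rise was called. In NDRG1-eGFP against PLP-GFP 2 rose and 8 fell, with a median of -0.53. Over all genes 48.3% were called there, 26.1% higher and 22.2% lower. Of the gamma-secretase, which cuts the remaining stump, the subunit genes Aph1a and Psenen fell by 3.0 ± 0.20 and 2.05 ± 0.15, although 24.9% and 39.0% of their transcript windows are shared with other annotated transcripts, so their counts are uncertain. Other subunit genes, named after their values were seen, went both ways, each held in 15 of 15 settings. Aph1b was lower (-1.17 to -0.74 over the settings, 17.99% of windows shared) and Ncstn higher (0.47 to 0.68, 0% shared). Axin1, a Wnt pathway scaffold that the C3 isoform binds, fell by 1.78 ± 0.27, and Ptk2b, a kinase of the focal adhesion kinase family that gamma protocadherins hold in check, rose by 1.5 ± 0.23. In NDRG1-eGFP against PDGFRa-GFP libraries 10.7% of all genes were called higher and 10.4% lower. Of the 18 partner genes 4 rose there and 5 fell, with a median of -0.11. Among them were Psen2, the catalytic subunit of the gamma-secretase, at 0.70 ± 0.16, Axin1 at -1.17 ± 0.27, Aph1a at -3.30 ± 0.20 and Psenen at -2.84 ± 0.15. With the libraries recentred on their median ratio, 1 rose and 6 fell, and leaving out a library gave 1 to 4 rises and 3 to 7 falls.

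Genes beside the clusters that are no protocadherins were measured for 17 of 23 listed genes. The first comparison called 17.0% of all genes, 8.46% higher and 8.53% lower. Of the 17, 0 rose and 4 fell in PLP-GFP against PDGFRa-GFP (limma, 0 and 5 unadjusted, median -0.13): Ndufa2 of the respiratory chain (-1.07 ± 0.27), the histone deacetylase Hdac3 (-0.58 ± 0.15), Zmat2 (-0.50 ± 0.15) and the histidyl-tRNA synthetase Hars (-0.40 ± 0.11). Hdac3 lies 94.0 kb past the cluster's end. For NDRG1-eGFP against PLP-GFP 48.3% of all genes were called, 26.1% higher and 22.2% lower. Of the 17 flanking genes 8 rose and 1 fell (median 0.50), with Wdr55 at 1.12 ± 0.15, Hars at 1.07 ± 0.11, Zmat2 at 0.88 ± 0.15 and Ndfip1 at 0.57 ± 0.13, each held in 15 of 15 settings. The gene that fell, Gnpda1, is named after its values were seen (-0.89 ± 0.23, also held in 15 of 15), and its direction is that of Pcdhga4, Pcdhga5 and Pcdhga6. Gnpda1 lies 485.7 kb past the cluster's end. Other annotated transcripts share 21.65% of its transcript windows, so its counts are uncertain. With the length trend removed 5 rose and 1 fell (median 0.14), and Wdr55, Hars and Zmat2 stood at 0.62, 0.62 and 0.50. Limma called 10.7% of all genes higher in NDRG1-eGFP against PDGFRa-GFP libraries and 10.4% lower. Of the 17 flanking genes 4 rose there, Wdr55 (0.81 ± 0.15), Hars (0.67 ± 0.11), Ik (0.60 ± 0.19) and Ndfip1 (0.44 ± 0.13), and 0 fell (2 unadjusted, median 0.30). Recentred libraries gave 2 and 2. Leaving out a library left 5 to 8 rises in the former comparison and 2 to 5 in the latter. Several of these transcripts are short, and with the length trend removed 0 rose and 1 fell in the first comparison (median 0.01). Without PDGFRa-GFP replicate 2 or PLP-GFP replicate 2 or 3, 0 of these falls were called, and without PLP-GFP replicate 1 only 1.

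**Figure D4:**
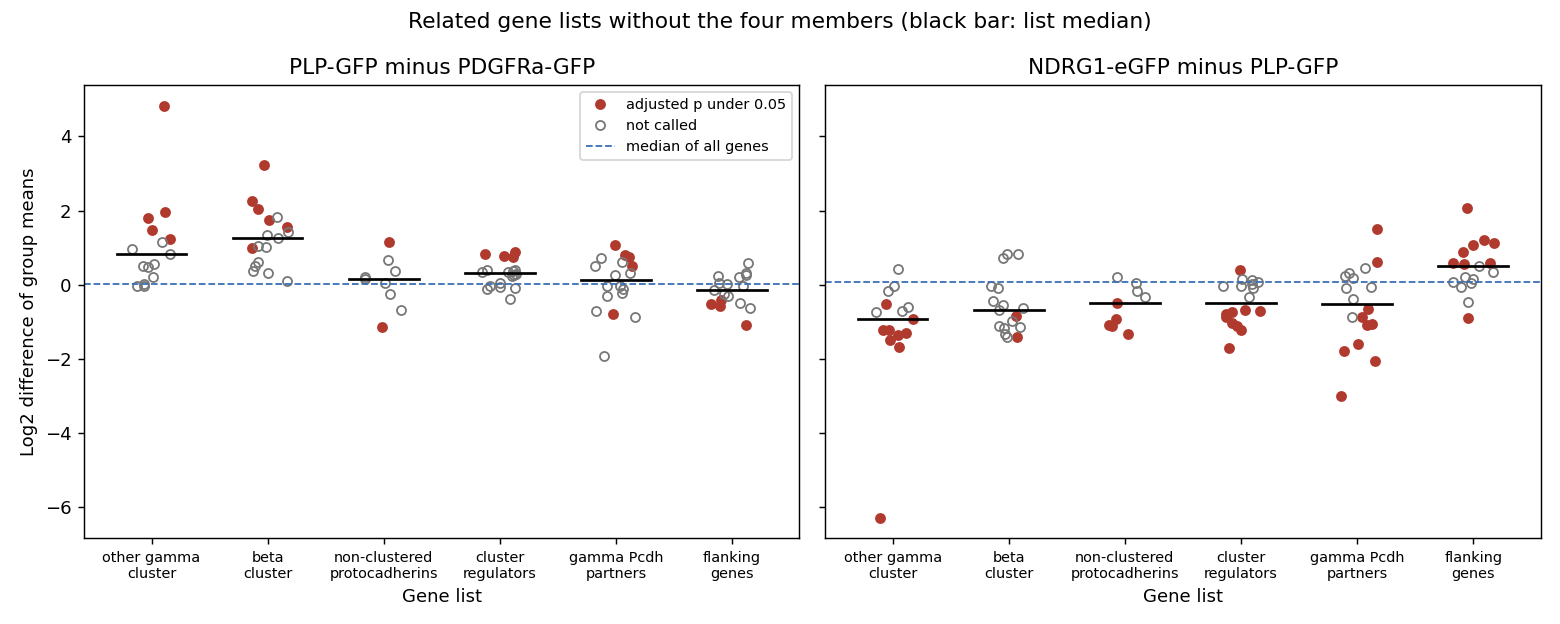
Log2 difference of group means (vertical axis) for each measured gene of the lists related to the gamma protocadherins (horizontal axis), without Pcdhga4, Pcdhga5, Pcdhga6 and Pcdhga11, for PLP-GFP minus PDGFRa-GFP and NDRG1-eGFP minus PLP-GFP, filled where limma's adjusted p was under 0.05. Black bars are list medians, 0.82 and -0.93 for the other gamma genes, and the dashed line is the median of all genes, 0.03 and 0.08.

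Markers of some other cell types differed between the same groups as the 4 genes, and those of others mostly did not. Of all genes 17.0% were called for PLP-GFP minus PDGFRa-GFP and 48.3% for NDRG1-eGFP minus PLP-GFP. Of the 10 measured fibroblast-like markers limma called 9 lower for PLP-GFP minus PDGFRa-GFP (median -5.37) and 9 higher for NDRG1-eGFP minus PLP-GFP (median 4.8). All 10 differences lay below 0 in the former and above 0 in the latter. This is the direction of Pcdhga11 and the reverse of Pcdhga4, Pcdhga5 and Pcdhga6. Microglial markers fell in 2 of 11 and rose in 8 of 11 in these comparisons, but the 2 falls became 5 without PDGFRa-GFP replicate 3 and 0 on leaving out any other library or with the length trend removed. Astrocyte markers were called in 1 of 12 (lower) and 2 of 12 (1 in each direction). Of the 10 endothelial markers 2 were measured, Cldn5 and Kdr. Cldn5 rose by 5.26 ± 1.13 in PLP-GFP against PDGFRa-GFP libraries, the direction of Pcdhga4, a call lost without PLP-GFP replicate 2 or 3. Its PDGFRa-GFP values of 0.35, 0.33 and 1.80 lay near the lowest value of the data, 0.29. Kdr was not called in that comparison, with means of 9.38 in PDGFRa-GFP, 9.89 in PLP-GFP and 9.88 in NDRG1-eGFP libraries. Neuron markers were called in 0 of 7 in either comparison, also at an unadjusted p under 0.05, and Rbfox3, Slc17a7, Nefm, Meg3 and Reln were not among the genes measured. The part of these cell types in the levels of the 4 genes was not tested.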

How the data were processed

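Per the file headers the authors deposited 1 normalized value per gene and library. The deposited values were on a log2 scale, as their range shows. Their sorted values were nearly identical in the 9 libraries. That they had been scaled to this was read from the values. BWA, DESeq2 1.2.5 and mm10 are named in the submitters' processing notes without a role. Counting, annotation, strand and depth are not given in the sources used here. The members and all gene lists were chosen with earlier results of these data known.

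The log2 values were taken as they stood, in place of the log2(value + 1) foreseen for linear values, and fitted with limma 3.58.1 (trend, R 4.3.3) over all 9 libraries, with Benjamini-Hochberg adjustment over 11315 genes and a filter (3 or more libraries at 1 or above) that removed 0 genes. GENCODE M21 gave lengths and positions for 11275 symbols. Shares and ratios used linear values divided by transcript length. First-exon identity came from Biopython 1.88 alignments.

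A listed mature oligodendrocyte marker is not reported here. Named genes were the 4 members, every measured gamma and beta gene with a call or a stated value, up to 4 called genes a list and comparison with the smallest adjusted p, and the 6 most correlated genes. Alternatives were recentred libraries, added constants of 0.1 and 5 (libraries scaled to a mean of 100), no filter, genes with a mean of at least 8, a replicate block, only the groups compared, robust empirical Bayes, a removed length trend, each library left out, adjusted p under 0.01 and a log2 difference of at least 1. The fit was tested on simulated data.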

Additional observations from a re-analysis of the deposited data

How the results depend on the processing

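Each of the 12 differences of the 4 genes was computed under 15 alternatives. Of these, 5 (no filter, a mean of at least 8, the replicate block, only the groups compared, robust empirical Bayes) cannot change a difference of group means. In the other 10 the 8 differences that involve PLP-GFP libraries had the same sign. An added constant of 5 shrank them, to 1.93, 0.89, 0.86 and -0.97 for Pcdhga4, Pcdhga5, Pcdhga6 and Pcdhga11 in PLP-GFP minus PDGFRa-GFP and to -1.90, -0.94, -0.75 and 0.92 in NDRG1-eGFP minus PLP-GFP. With the length trend removed Pcdhga11 stood at 1.51 in the latter. On leaving out 1 library, PLP-GFP minus PDGFRa-GFP ranged from 2.82 to 3.48, 1.11 to 1.56, 1.21 to 2.12 and -1.43 to -1.11, NDRG1-eGFP minus PLP-GFP from -3.24 to -2.75, -1.65 to -1.26, -1.52 to -1.04 and 1.14 to 1.38, and NDRG1-eGFP minus PDGFRa-GFP from -0.21 to 0.46, -0.31 to 0.12, -0.09 to 0.83 and -0.15 to 0.12, in the same gene order.

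Counts over all genes moved more. For PLP-GFP against PDGFRa-GFP, 957 higher became 552 with only the groups compared, 462 with the length trend removed, 121 at adjusted p under 0.01, 284 at a log2 difference of at least 1 and 92 to 1449 on leaving out a library, and 965 lower became 514, 557, 171, 353 and 186 to 1340. For NDRG1-eGFP against PLP-GFP, 2953 higher became 1816 at adjusted p under 0.01 and 936 at a log2 difference of at least 1 (2114 to 2633 on leaving out a library), and 2507 lower became 1350 at that difference (1847 to 2313). For NDRG1-eGFP against PDGFRa-GFP, 1207 higher became 591 after recentring (beside 1362 lower), 318 with only the groups compared, 240 and 159 at the stricter thresholds and 447 to 2804 on leaving out a library, and 1176 lower became 724, 659 and 657 (836 to 1817).

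Of the 32 other clustered protocadherin genes, 11 higher in PLP-GFP than in PDGFRa-GFP became 4 with a mean of at least 8, 6 with only the groups compared, 7 with the length trend removed, 1 at adjusted p under 0.01 and 1 to 18 on leaving out a library. The 11 called lower for NDRG1-eGFP against PLP-GFP became 17 with a constant of 5, 17 with only the groups compared, 5 with the length trend removed, 2 at adjusted p under 0.01 and 2 to 9 on leaving out a library, and 0 higher became 1 with a constant of 5 and 1 with only the groups compared. The 3 higher in NDRG1-eGFP than in PDGFRa-GFP became 0 with a mean of at least 8, 0 with only the groups compared, 0 at adjusted p under 0.01 and 0 to 9 on leaving out a library. The cause was not tested.

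Libraries of the same number in different groups had deviations correlated at -0.234 to 0.094, and those of different numbers at -0.134 to 0.225. These values give no sign of pairing by number. Deviations from means of 3 libraries cannot show whether the libraries were paired. In this balanced design a replicate block cannot change the differences of the 4 genes (3.15, 1.33, 1.62 and -1.28 in the first comparison). With it, genes called became 338 higher and 384 lower for PLP-GFP against PDGFRa-GFP and 457 higher for NDRG1-eGFP against PDGFRa-GFP, and other clustered genes called higher became 7 and 1.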

Other observations

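Protocadherin genes outside the clusters were measured for 9 of 12 listed genes. In PLP-GFP against PDGFRa-GFP libraries limma called 8.46% of all genes higher and 8.53% lower. Of the 9 genes Pcdh1 rose there by 1.16 ± 0.28 and Pcdh7 fell by 1.12 ± 0.22 (median of the 9 genes 0.16). The call of Pcdh1 held in 10 of 15 alternative settings and that of Pcdh7 in 13, both lost without PLP-GFP replicate 2 or 3. In NDRG1-eGFP against PLP-GFP libraries 48.3% of all genes were called, 26.1% higher and 22.2% lower. Of the 9 genes 5 fell and 0 rose there (5 and 0 at an unadjusted p under 0.05, median -0.48), among them Pcdh10 (-1.10 ± 0.14), Pcdh1 (-1.09 ± 0.28), Pcdh11x (-0.93 ± 0.26) and Pcdh17 (-0.48 ± 0.13). Without PLP-GFP replicate 1 or NDRG1-eGFP replicate 1 the count was 3. With the length trend removed 1 fell and 2 rose, and Pcdh17 stood at 0.05. In NDRG1-eGFP against PDGFRa-GFP libraries Pcdh7 fell by 1.45 ± 0.22 and Pcdh10 by 0.73 ± 0.14, calls that held in 15 of 15 settings, and 0 rose (0 unadjusted, median -0.41). Of all genes 10.4% were called lower in that comparison and 10.7% higher.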
